A study of Xenopus laevis with 11 samples.

Results

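Broad H3K4me3 domains without p300 are H3K4me3 peaks of early Xenopus laevis gastrulae that were at least 2500 bp wide and met no peak of p300. They were chosen from the peak lists alone: an interval of the H3K4me3 list on an L or S chromosome was taken when its width reached 2500 bp and no interval of the p300 list overlapped it by 1 bp or more. This gave 989 domains out of 22191 H3K4me3 peaks on those chromosomes. Width and the absence of p300 chose the domains and are given below as a description, without tests.

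H3K4me3, the trimethylated lysine 4 of histone H3, is placed by SET1 and MLL complexes around active and poised promoters. In most cells it forms a narrow peak at the start of a gene, and in mammals unusually broad domains are known from genes of cell identity and development. p300 is an acetyltransferase that is brought to enhancers and promoters by transcription factors, where it acetylates histones. In embryos of the related frog Xenopus tropicalis, much of the H3K4me3 at this age is laid down independently of embryonic transcription, while p300 recruitment depends on it more. The chromosomes of the allotetraploid Xenopus laevis come in pairs of a longer (L) and a shorter (S) homeologue.

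The chromatin came from whole embryos at Nieuwkoop-Faber stage 10.5, pooled at 35 to 90 embryos, and the labels give no strain, genotype or treatment. Of the 11 samples, 4 were analysed through their peak lists, H3K4me3 replicates 1 and 2 and p300 replicates 1 and 2, together with 1 series-wide list per target. The 7 others, an input and 2 libraries each of RNA polymerase II, H3K36me3 and H3K4me1, were not analysed here. The labels do not say that replicates came from separate clutches, so their spread may be technical. A peak in a whole embryo can come from all of its cells or from some of them, and these cannot be told apart. Whether the label of whole embryo fits cell type markers was not tested, because the lists name no genes.

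On the L and S chromosomes the H3K4me3 lists held 28926 peaks in replicate 1 and 24154 in replicate 2, and the p300 lists held 31347 and 54814. The series-wide lists held 22191 H3K4me3 and 23017 p300 peaks, and each of them was identical to the overlap of a replicate 1 call with a replicate 2 call. A domain is therefore the stretch that both H3K4me3 replicates called, and a domain counts as free of p300 when it met no stretch called by both p300 replicates. The lists hold positions without any signal, score or p-value, so read depth is unknown and every value below is a count, a width or a distance. Values in parentheses after shares and densities are 95% intervals (Wilson for shares, Poisson for densities). They take each peak as independent of its neighbours and hold only the error of counting.

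The 989 domains covered 3.23 Mb. Their widths ranged from 2500 to 7272 bp around a median of 3027 bp (quartiles 2724 and 3572 bp), while the 1363 broad domains with p300 had a median of 3375 bp (quartiles 2896 and 4148 bp). Of all 2352 broad domains, 42.0% were thus free of p300, whereas 74.8% of all H3K4me3 peaks on these chromosomes were. The share without p300 was lower among wider domains. The rule gives a wider domain more bases in which to meet a p300 peak, and the part of this in the shares was not tested. Among domains of 2500 to under 3000 bp, 475 of 918 had no p300, or 51.7% (48.5 to 55.0%). Among those of 5000 bp or more, 36 of 179 had none, or 20.1% (14.9 to 26.6%).

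**Figure D1:**
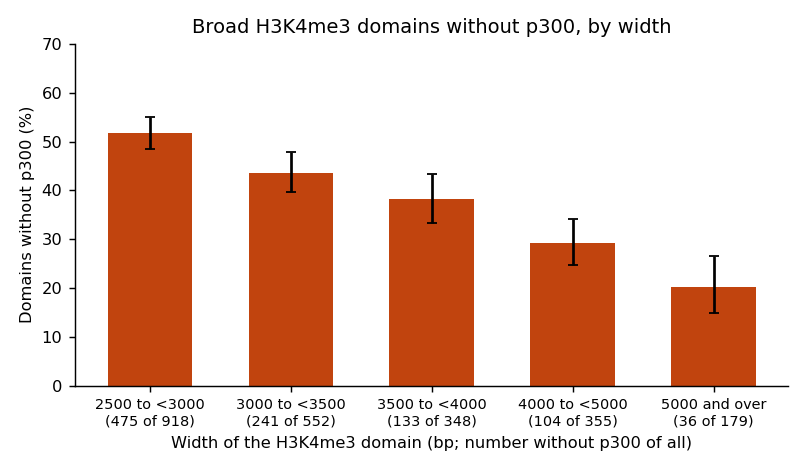
Share of broad H3K4me3 domains without series-wide p300 (percent, vertical axis) in 5 width classes (bp, horizontal axis); bars are shares and lines are Wilson 95% intervals. The share is 51.7% in the narrowest class and 20.1% in the widest. The rule gives a wider domain more bases in which to meet a p300 peak.

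The widest domain without p300 lay on chromosome 4L from 8821888 to 8829159 (7272 bp), in the coordinates of the lists, whose genome build is not given in the sources used here. Under it, the replicate calls were 7272 and 7684 bp wide, and 1 p300 call of replicate 2 lay inside it. The next was on 5S from 6770727 to 6777960 (7234 bp) and held 2 p300 calls of replicate 1 and none of replicate 2. The domain on 1L from 20385650 to 20392611 (6962 bp) held 3 p300 calls, all of replicate 2. All 5 of the widest domains held p300 calls of at least 1 replicate: the 8S domain at 3824349 to 3830470 (6122 bp) held 2 calls of replicate 2, and the 6S domain at 1898241 to 1904230 (5990 bp) held 2 of each replicate.

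At the width threshold, the narrowest domains taken in were 2500 bp wide on 6L (129293121 to 129295620) and on 8L (49101182 to 49103681), and 2502 bp on 1L (89810470 to 89812971). The widest p300-free peaks left out were 2497 bp wide on 2L (42310864 to 42313360) and on 6L (85558103 to 85560599), and 2496 bp on 3L (98884297 to 98886792). Domains on either side of the threshold thus differed by a few bases. The replicate calls under the 8L domain were 3375 and 2500 bp wide, so its class was set by replicate 2.

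The rule asks for a stretch of at least 2500 bp shared by both H3K4me3 replicates, so it bears on how far their calls overlap. Over the domains the median call was 3549 bp wide in replicate 1 and 3153 bp in replicate 2. The replicate 1 call was the wider in 758 of 989 domains, or 76.6%, and in 80.8% of all H3K4me3 peaks. In 519 domains, or 52.5%, the replicate 2 call was itself the domain, and in 83, or 8.39%, the replicate 1 call was. Over all H3K4me3 peaks these shares were 61.0 and 5.91%. Replicate 1 calls reached beyond the domain by a median of 294 bp in total (quartiles 80 and 749 bp). At 54 domains, 5.46%, the replicate 1 call also held another series-wide H3K4me3 peak. This share was 10.6% in broad domains with p300 and 5.95% in all H3K4me3 peaks. Each domain covered a median of 87.9% of the span of its 2 calls (quartiles 78.4 and 94.9%), and 6 domains covered less than 50%. This median was 86.9% in the broad domains with p300, 81.7% in medium-width p300-free peaks (1000 to under 2500 bp) and 78.3% in all H3K4me3 peaks. Over the 9 chromosome pairs the difference was 1.21 ± 1.72 percentage points (SD), positive in 8 of 9 pairs, and it did not pass (exact sign-flip permutation p = 0.0586, Benjamini-Hochberg adjusted p = 0.0781 over the 8 tests made). It passed when an overlap of 50% of the shorter interval was required, at 1.11 percentage points (exact test, adjusted p = 0.0469). It also passed when p300 within 1 kb was barred, at 1.65 (exact test, adjusted p = 0.00781). That setting moves the 53 domains with p300 within 1 kb to the class with p300. In 32 of them a replicate call met p300 beyond the shared stretch, so the setting itself bears on the difference. In the 7 other alternatives the difference did not pass (exact test, adjusted p up to 0.330). Of these, merging H3K4me3 intervals under 100 bp apart changed no interval.

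This two-sided test was used throughout. It flips the sign of the difference in each of the 9 pairs of homeologous chromosomes, and the smallest p it can give is 0.00391. It shows how regular a difference was along the genome and not how it would vary between batches of embryos.

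The number of domains depended on the H3K4me3 library. With the replicate 1 list alone in place of the series-wide list, 2046 peaks met the same rule, and with the replicate 2 list alone 1223 did. With p300 replicate 2 alone, 669 domains were free of p300, and with p300 replicate 1 alone 799 were.

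The absence of p300 was therefore an absence of p300 calls shared by both replicates. Inside 532 of the 989 domains, or 53.8% (50.7 to 56.9%), neither replicate had a p300 call, whereas this held for 76.7% of all p300-free H3K4me3 peaks and for 71.8% (70.7 to 72.7%) of p300-free peaks of medium width. Replicate 2 alone had calls inside 267 domains, or 27.0% (background 13.6%), and replicate 1 alone inside 137, or 13.9% (background 8.76%). In 53 domains, 5.36% (background 0.952%), each replicate had a call but the calls did not meet. The closest calls of the 2 replicates in those domains were a median of 441 bp apart, from 1 to 2025 bp.

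**Figure D2:**
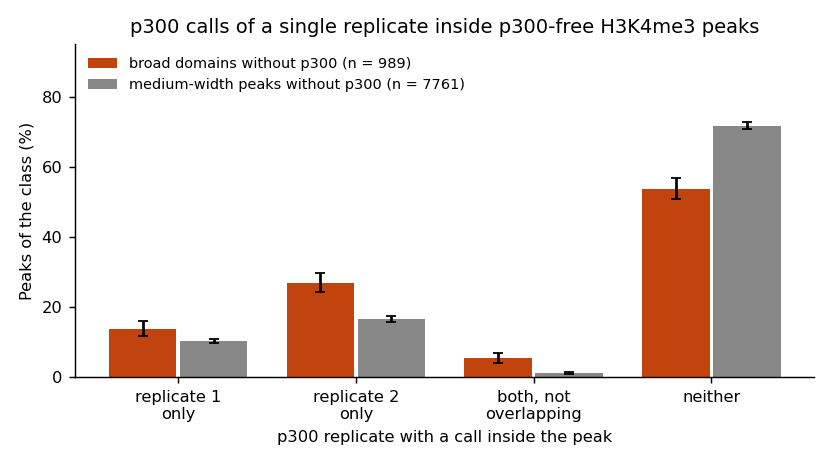
Share of peaks (percent, vertical axis) by which p300 replicate had a call inside the peak (horizontal axis), for the 989 broad domains and the 7761 medium-width peaks without series-wide p300; lines are Wilson 95% intervals. Calls of neither replicate were found in 53.8% of the broad domains and in 71.8% of the medium-width peaks.

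Per kb of H3K4me3 these calls were not denser in the broad domains. The domains held 0.0691 replicate 1 p300 centres per kb (0.0603 to 0.0788), and medium-width p300-free peaks held 0.0798 (0.0748 to 0.0851). For replicate 2 the densities were 0.113 (0.101 to 0.125) in the domains and 0.120 (0.114 to 0.126) in the medium-width peaks. The intervals of the domains and the medium-width peaks overlapped for both replicates. Peaks in which calls of the 2 p300 replicates meet are left out of both classes by the rule. This bears on the densities, so they are a description and no test. The calls were narrow, with a median of 174 bp for replicate 1 and 230 bp for replicate 2, while the medians of the whole lists were 215 and 260 bp. Their centres lay all along the domain. Of the 225 replicate 1 calls and 372 replicate 2 calls that overlapped a domain, 223 and 363 had their centre inside it. As shares of all overlapping calls, the outer 20% at each end together held 32.0% in replicate 1 and 40.6% in replicate 2. The replicates differed in the middle 20% of the domain, which held 24.0% of the replicate 1 calls and 14.2% of the replicate 2 calls.

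At most 4 such calls were found in 1 domain, and 7 domains had that many. The widest of these were the 6S domain named above, a 1S domain at 133877705 to 133883596 (5892 bp) and a 2L domain at 333376 to 338182 (4807 bp). The 1S domain held 2 calls of each replicate, and its nearest series-wide p300 peak was 49.6 kb away. The 2L domain held 3 calls of replicate 1 and 1 of replicate 2, with series-wide p300 at 52.0 kb. The widest domains without a call of either replicate were 2 on 4S, at 19370056 to 19375647 (5592 bp) and at 99958965 to 99964490 (5526 bp), and 1 on 5L at 12025805 to 12031191 (5387 bp). Their nearest series-wide p300 peaks were 26.07, 9.53 and 11.96 kb away.

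The surroundings of the domains held less p300 than those of broad domains with p300, but more than those of medium-width p300-free peaks. The measure was the number of series-wide p300 centres per kb in the 10 kb on each side of a peak, leaving out everything inside H3K4me3 peaks. The flanks were not used to choose the domains, although the p300 libraries were the same and a p300 peak that straddles the edge of a peak can occur only at a domain with p300. The domains had 0.0200 centres per kb (0.0181 to 0.0221, 390 centres), and broad domains with p300 had 0.0599 (0.0570 to 0.0629, 1589 centres). Medium-width peaks without p300 had 0.0109 (0.0104 to 0.0114, 1665 centres), and the p300 list averaged 0.00918 peaks per kb over the chromosomes. That average takes in p300 inside H3K4me3 peaks, which the flank densities leave out, so it is not a like measure. Over all p300-free H3K4me3 peaks the density was 0.0136 (0.0132 to 0.0140). Over all H3K4me3 peaks, with or without p300, it was 0.0211 (0.0206 to 0.0215), near that of the domains. p300-free peaks under 1000 bp were not compared on their own.

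In every chromosome pair the domains lay between broad domains with p300 and medium-width peaks without p300. Per pair the domains had 0.0156 to 0.0260 centres per kb, the broad domains with p300 0.0465 to 0.0749 and the medium-width peaks 0.00879 to 0.0146. The mean log2 ratio of the domains to broad domains with p300 was -1.57 ± 0.30 (SD over 9 pairs), a 2.97-fold lower density, lower in 9 of 9 pairs (exact sign-flip permutation p = 0.00391, the smallest possible, adjusted p = 0.00781). Against medium-width p300-free peaks the mean log2 ratio was 0.88 ± 0.32, or 1.84-fold higher, higher in 9 of 9 pairs (exact p = 0.00391, adjusted p = 0.00781). With p300 replicate 2 alone this ratio was 0.54 (exact test, adjusted p = 0.0104). Without p300 peaks that overlap any H3K4me3 peak, which leaves out those straddling an edge, the flanks held 0.0196 centres per kb around the domains, 0.0546 around broad domains with p300 and 0.0105 around medium-width peaks. The mean log2 ratio was then -1.47 to broad domains with p300 and 0.90 to medium-width peaks (exact test, adjusted p = 0.00781 in each). The ratio to medium-width peaks was 0.56 when only peaks free of calls of both p300 replicates were compared, and then it no longer passed (exact test, adjusted p = 0.0521, higher in 8 of 9 pairs).

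The same order was seen with each p300 replicate, whose lists differ in size. With replicate 1 the flanks held 0.0260 centres per kb around the domains, 0.0703 around broad domains with p300 and 0.0152 around medium-width peaks. With replicate 2 the values were 0.0416, 0.0956 and 0.0269. Between 1 and 2 kb from the edge the series-wide density was 0.0216 per kb for the domains, 0.0699 for broad domains with p300 and 0.0106 for medium-width peaks. Between 19 and 20 kb from the edge it was 0.0129, 0.0351 and 0.00891.

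**Figure D3:**
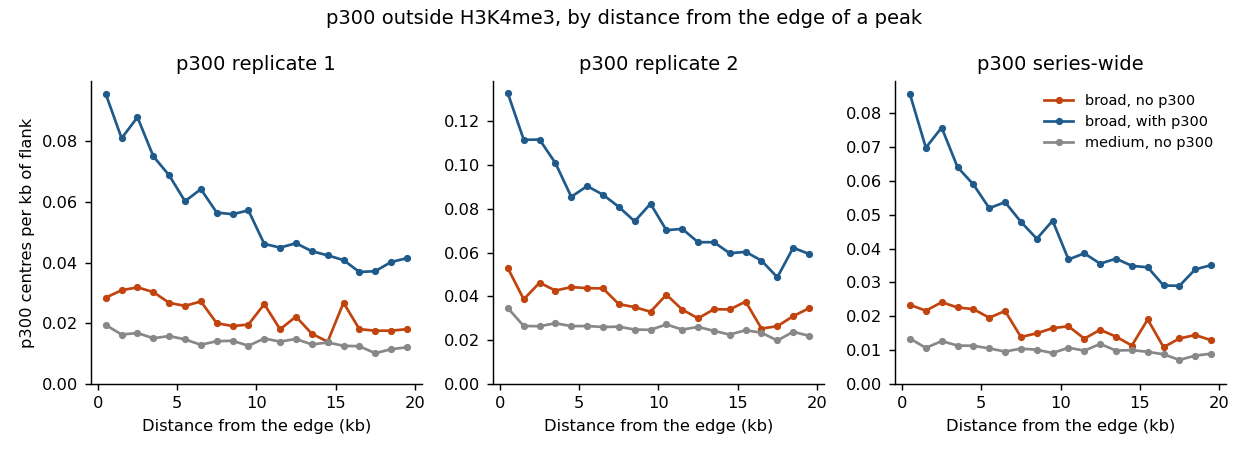
p300 centres per kb outside H3K4me3 peaks (vertical axis, scaled separately in each panel) against the distance from the edge of a peak in kb (horizontal axis, 1 kb steps), for p300 replicate 1, replicate 2 and the series-wide list. Broad domains without p300 lie below broad domains with p300 in every step, with 0.0216 and 0.0699 series-wide centres per kb between 1 and 2 kb; in the first step the rule bears on the difference, since p300 that straddles an edge occurs only with p300 domains.

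Single domains ranged from those with p300 at their edge to those far from any. The median gap to the nearest series-wide p300 peak was 24.4 kb (quartiles 6.61 and 60.5 kb), and it was 43.3 kb for medium-width p300-free peaks. p300 lay within 10 kb of 304 domains, or 30.7% (27.9 to 33.7%), and of 22.3% of all p300-free H3K4me3 peaks. It lay farther than 50 kb from 297 domains, or 30.0% (27.3 to 33.0%), and from 44.6% of all p300-free peaks. Within 1 kb there was p300 at 53 domains, 5.36%, close to the background of 4.47%. In 36 domains, 3.64%, the p300 peak met the part of an H3K4me3 call that 1 replicate had beyond the domain, in replicate 1 for 32 of them and in replicate 2 for 4. Such domains passed the rule because their edges were trimmed to the shared stretch. The same share was not counted over other p300-free peaks, so whether it is particular to the domains was not tested.

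The domains most remote from p300 were on 4S and 3S. The 4S domain from 46819336 to 46823258 (3923 bp) was 1664 kb from its nearest series-wide p300 peak, which lay at lower positions. The 4S domain from 47203486 to 47206520 (3035 bp) was 1621 kb from its own nearest, a different peak at higher positions. For the first of these the nearest p300 call was 461 kb away in replicate 1 and 53.9 kb away in replicate 2, and for the second 77.9 and 11.9 kb. The 3S domain from 93958716 to 93961445 (2730 bp) was 916 kb from series-wide p300, 207 kb from a replicate 1 call and 7.42 kb from a replicate 2 call. Far from shared p300 peaks, the second 4S domain and the 3S domain thus still had a replicate 2 call at 11.9 and 7.42 kb. No replicate 1 call lay within 50 kb of the 3 domains, and no call of either replicate within 50 kb of the first. In all, 11 domains, 1.11% (0.622 to 1.98%), were more than 500 kb from series-wide p300, near the 1.28% of all p300-free peaks.

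Domains that held p300 calls of 1 replicate alone had more series-wide p300 around them than domains without a call of either replicate. The 532 domains without any such call had 0.0151 series-wide p300 centres per kb of flank (0.0129 to 0.0177). The 137 with calls of replicate 1 alone had 0.0269 (0.0210 to 0.0339), and the 267 with calls of replicate 2 alone had 0.0257 (0.0216 to 0.0304). The 53 with calls of each replicate had 0.0230 (0.0147 to 0.0342). The intervals of the groups with calls of 1 replicate alone lay above that of the domains without, and the interval of the 53 overlapped it. These intervals take each domain as independent, and the groups were split by calls of the same p300 libraries that give the flank values. The densities are therefore a description, and the difference was not tested over the chromosome pairs. The median widths were 3187 and 3102 bp for the groups with calls of replicate 1 or replicate 2 alone and 2967 bp for the domains without. The part of width in this difference was not tested.

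Other H3K4me3 peaks were less often close to these domains than to broad domains with p300. Another series-wide H3K4me3 peak had its edge within 10 kb of 257 domains, or 26.0% (23.3 to 28.8%), and of 521 broad domains with p300, or 38.2% (35.7 to 40.8%). The value over all H3K4me3 peaks was 30.9%. Within 1 kb the shares were 5.06% for the domains, 11.1% for broad domains with p300 and 6.68% for all H3K4me3 peaks. The part of the difference from neighbours that lie in the same replicate 1 call was not tested. Over the chromosome pairs the share within 10 kb was 25.8 ± 3.27% (SD, n = 9 pairs) for the domains and 38.6 ± 5.31% for broad domains with p300. The mean difference was -12.8 ± 6.47 percentage points, negative in 9 of 9 pairs (exact sign-flip permutation p = 0.00391, adjusted p = 0.00781).

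Against medium-width p300-free peaks the difference was small. The share was 25.8 ± 3.27% in the domains and 22.7 ± 2.55% in the medium-width peaks (SD, n = 9 pairs), a difference of 3.07 ± 2.43 percentage points, positive in 8 of 9 pairs (exact permutation p = 0.0117, adjusted p = 0.0188). It did not pass with p300 replicate 2 alone, at 2.64 percentage points (exact test, adjusted p = 0.150), nor with p300 replicate 1 alone, at 2.01 (adjusted p = 0.0688). It also did not pass when the domains were limited to under 3500 bp, at 1.53 (exact test, adjusted p = 0.330). The direction held for the medium-width class only: over all p300-free H3K4me3 peaks the share was 28.4% (27.8 to 29.1%), above the 26.0% of the domains.

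**Figure D4:**
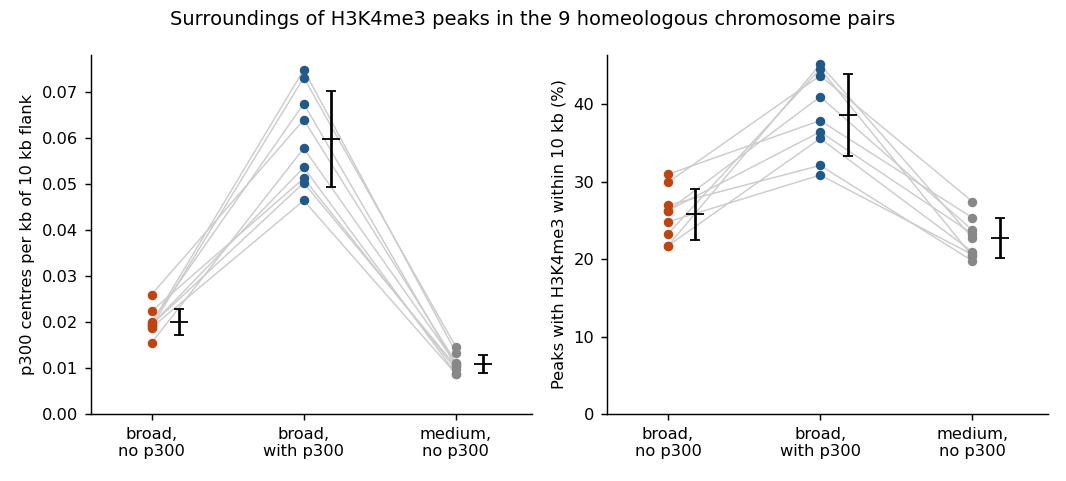
p300 centres per kb of 10 kb flank (left) and percent of peaks with another H3K4me3 peak within 10 kb (right), for 3 classes of H3K4me3 peaks. Each point is a chromosome pair, grey lines join the same pair, and the bars beside the points are the mean and SD over 9 pairs. On the left the 9 values of broad domains without p300, 0.0156 to 0.0260, all lie below those of broad domains with p300.

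Among the 257 domains with H3K4me3 within 10 kb, the nearest peak was under 1000 bp in 143, or 55.6% (49.5 to 61.6%), from 1000 to under 2500 bp in 99 and 2500 bp or more in 15. Over all 6862 H3K4me3 peaks with another that close, the nearest was under 1000 bp in 50.4%. It overlapped p300 in 57 of the 257, or 22.2% (17.5 to 27.6%), and in 31.1% of the 6862. Isolated domains were found as well. At 111 domains, 11.2% (9.40 to 13.3%), there was neither p300 nor another H3K4me3 peak within 50 kb, and at medium-width p300-free peaks this share was 20.1% (19.3 to 21.0%).

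The domains made up 4.46% of all H3K4me3 peaks on these chromosomes, and 104 of the 1976 peaks next to a domain, 5.26% (4.36 to 6.34%), were themselves such domains. Of the 989, 888 had no other such domain next to them in the order of H3K4me3 peaks, 92 stood in 46 pairs and 9 in 3 runs of 3. The mean was 0.0394 domains per 100 kb, and no window of 100 kb held more than 3. Of the 3 windows with 3 domains, the one on 3L from 142801338 to 142901337 held no other series-wide H3K4me3 peak and no series-wide p300, with domains of 2529 to 4497 bp. The one on 9_10L from 43779757 to 43879756 held 2 further H3K4me3 peaks and no series-wide p300, with domains of 3629 to 4205 bp. The one on 7L from 125982197 to 126082196 held 4 series-wide H3K4me3 peaks, its domains among them, and 2 series-wide p300 peaks. H3K4me3 replicate 1 had 2 calls in this window and replicate 2 had 4, and whether its domains share a replicate 1 call was not tested. These windows were not empty of p300 calls. Replicates 1 and 2 had 2 and 1 calls in the 3L window and 2 and 0 in the 9_10L window. In the 7L window they had 2 and 5 calls, counted with those that make up its 2 series-wide p300 peaks.

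On the subgenomes, 547 domains lay on L and 442 on S chromosomes, so that L held 55.3% (52.2 to 58.4%). Of all H3K4me3 peaks, 12509 were on L and 9682 on S, 56.4% on L, so the domains' share was near the background. The mean log2 ratio of L to S was 0.31 ± 0.17 (SD over 9 pairs), or 1.24-fold, above 0 in 9 of 9 pairs (exact sign-flip permutation p = 0.00391, adjusted p = 0.00781). It ranged from 0.02 in pair 8, with 59 domains on 8L and 58 on 8S, to 0.55 in pair 7, with 41 on 7L and 28 on 7S. L chromosomes are longer. Per Mb of chromosome, taken up to the farthest peak of all lists, the mean log2 ratio was 0.04 ± 0.17, above 0 in 6 of 9 pairs, and did not pass (exact p = 0.535). By number, the ratio also did not pass for domains of at least 3000 bp, at 0.19 (exact test, adjusted p = 0.0573), nor for those without a call of either p300 replicate, at 0.36 (adjusted p = 0.0781). Their widths were close as well, with medians of 3009 bp on L and 3038 bp on S.

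Broad domains with p300 had a higher mean log2 ratio of L to S, 0.53 ± 0.27, with 802 on L and 561 on S. The ratio of the domains without p300 was lower by 0.22 ± 0.34 in the mean and lower in 7 of 9 pairs, which did not pass (exact permutation p = 0.0820, adjusted p = 0.0938). With H3K4me3 replicate 1 alone the difference was -0.23 ± 0.19, negative in 9 of 9 pairs (exact p = 0.00391, adjusted p = 0.00547 over the 7 tests possible), and with H3K4me3 replicate 2 alone it was -0.17 (adjusted p = 0.260). With a minimum width of 3000 bp it was -0.42 (exact p = 0.0313, adjusted p = 0.05). The widest gap was in pair 8, where the numbers without p300 were 59 on 8L and 58 on 8S and those with p300 were 102 and 56. Against p300-free peaks under 2500 bp the difference in the log2 ratio was -0.05 ± 0.21 (exact p = 0.5), with opposite signs among the pairs, 4 above and 5 below 0. With H3K4me3 replicate 1 alone it was -0.12 and passed (exact p = 0.0313, adjusted p = 0.0313).

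**Figure D5:**
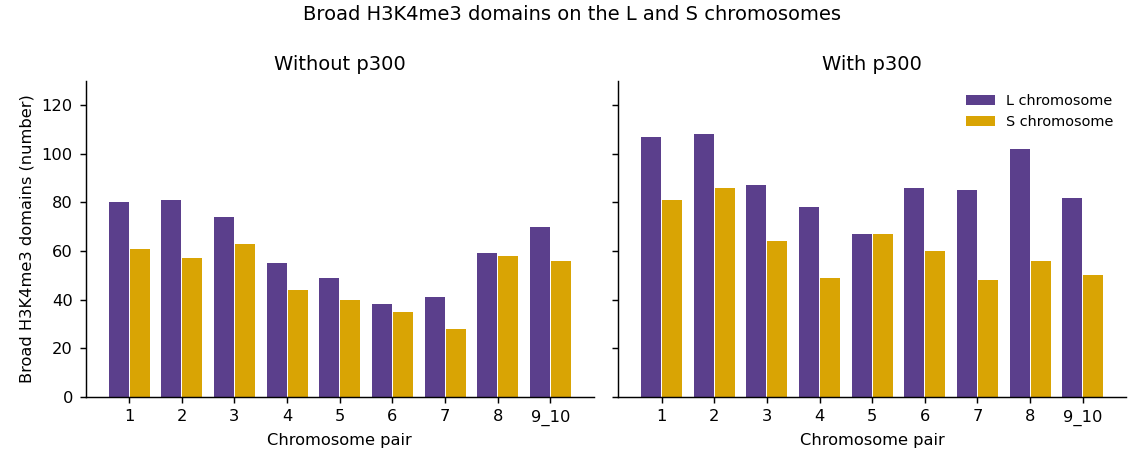
Number of broad H3K4me3 domains (vertical axis) without p300 (left) and with p300 (right) on the L and S chromosome of each homeologous pair (horizontal axis); bars are counts. In pair 8 the domains without p300 number 59 on 8L and 58 on 8S, and those with p300 number 102 and 56.

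The share of broad domains that lacked p300 ranged from 30.6% on 6L (23.2 to 39.2%, 38 of 124) to 52.8% on 9_10S (43.4 to 62.1%, 56 of 106). Chromosome 8S, with 50.9% (41.8 to 59.9%), and 3S, with 49.6% (41.1 to 58.2%), followed 9_10S, and 7L, with 32.5% (25.0 to 41.1%), was next to 6L. The intervals of 9_10S and 6L did not overlap, while those of neighbours in this order did. 9_10S and 6L were picked as the extremes of 18 chromosomes, so their separate intervals are no test of a difference. Per Mb of span, the domains were densest on 9_10L, with 0.594, and 8S, with 0.586, and least dense on 6L, with 0.245. As a share of all H3K4me3 peaks of a chromosome the order differed. It was highest on 3S, with 5.85%, and was 5.32% on 8S, 5.15% on 9_10L and 3.02%, the lowest, on 6L.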

How the data were processed

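The authors deposited 6 peak lists, which give a chromosome, a start and an end per peak and have no header, signal or score. The submitters' processing notes name bedtools, MACS2 2.1.0.20140616 and BWA 0.7.10-r789, with settings, control and genome build not given in the sources used here. Start and end are positions in bp, another kind of value than counts of reads, so no count model was used.

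Overlaps, gaps and flank densities were computed with Python 3.11.15, numpy 2.4.6, scipy 1.17.1 and pandas 2.3.3, and printed positions are 1-based. The functions were tested on simulated lists, where 668 values matched a base-by-base reading with 0 mismatches. The 8 comparisons flipped signs over the 9 homeologous chromosome pairs (exact permutation test, both sides) with Benjamini-Hochberg adjustment. Scaffolds were left out.

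The domains, classes and comparisons were chosen with earlier results of these data known. Regions named are the 5 widest domains, and 3 each of the widest without calls of either p300 replicate, the farthest from p300, those with the most single-replicate calls, those on each side of the width threshold and the densest 100 kb windows. Chromosomes and chromosome pairs were named after their values were seen. The gene table at hand is for Xenopus_laevis_v10.1 and the lists name no build, so it was not used for positions; gene names and sequences were not analysed here. Alternatives were other widths, overlaps, distances and single-replicate lists. A limit of both broad classes to under 3500 bp, flanks without bases inside an H3K4me3 call of either replicate, and flanks without p300 peaks that overlap an H3K4me3 peak, were chosen after seeing the data.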

Additional observations from a re-analysis of the deposited data

How the results depend on the processing

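The p300 density in the flanks of the domains relative to broad domains with p300 kept its direction and passed in all 15 alternatives that do not bar p300 from the flanks (log2 -2.07 to -1.22; barring p300 within 1 kb of a domain lowers it by construction), and so did the share with H3K4me3 neighbours in all 14 (-15.3 to -7.54 percentage points). The alternatives counted here include the merging of H3K4me3 intervals under 100 bp apart, which changed no interval and so could not differ. With a minimum width of 2000 bp there were 2045 domains, of which 40.9% held a single-replicate p300 call, and with 3000 bp there were 514, of which 51.2% did, against 46.2% of 989. At 3000 bp the log2 ratio of L to S was 0.19 (exact test, adjusted p = 0.0573), and its difference from broad domains with p300 was -0.42 (adjusted p = 0.05). Without calls of either p300 replicate, 532 domains remained; their log2 ratio of L to S was 0.36 (exact test, adjusted p = 0.0781), its difference from narrower p300-free peaks had the opposite sign at 0.030 (adjusted p = 0.852), the flank ratio to medium-width peaks was 0.56 (adjusted p = 0.0521) and the neighbour difference to them 1.28 percentage points (adjusted p = 0.469). That neighbour difference was 2.39 at a minimum of 2000 bp (exact test, adjusted p = 0.0813), 2.66 when p300 within 1 kb was barred (adjusted p = 0.0573) and 1.53 at widths of 2500 to under 3500 bp (adjusted p = 0.330). At 2500 to under 3500 bp, 42.7% of domains held a single-replicate call. Per Mb of span the log2 ratio of L to S was 0.037. The difference in shared span of the replicate calls did not pass in 7 of its 9 alternatives. It was 1.11 percentage points with an overlap of 50% (exact test, adjusted p = 0.0469). With p300 within 1 kb barred it was 1.65 (exact test, adjusted p = 0.00781), but that setting itself bears on the shared span. The cause was not tested.

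Leaving out each of the 4 libraries in turn gave 669 to 2046 domains. Without H3K4me3 replicate 1 or 2, 44.7 or 41.9% of them held a single-replicate p300 call. Without p300 replicate 1 or 2 in the rule, 20.5 or 33.4% held a call of the replicate left out, the only calls that the rule then allows. The difference in the log2 ratio of L to S ranged from -0.226 to -0.044 against broad domains with p300 and from -0.116 to 0.060 against narrower p300-free peaks, with the opposite sign, 0.060, without p300 replicate 1. The neighbour difference to medium-width peaks ranged from 2.01 to 4.91 percentage points. Merging H3K4me3 intervals under 100 bp apart changed nothing, since no series-wide gap was under 637 bp. The labels do not say that equal replicate numbers of H3K4me3 and p300 share embryos. With the replicate block, which pairs lists of the same number, 25.6% of domains held a p300 call of the other replicate, the log2 flank ratio was -1.33 to broad domains with p300 and 0.55 to medium-width peaks (exact test, adjusted p = 0.00547 in each), and no other comparison changed its call. The shared span of the replicate calls has no value from a single H3K4me3 list, and the share with single-replicate calls has none where such calls are barred. Unknown read depth limits every statement on absent p300 to calls in these lists.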

Other observations

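Along the chromosomes the domains were found in all parts. With each chromosome span divided into 10 equal parts, the parts held 7.08 to 13.0% of the domains without p300 and 7.92 to 12.2% of the broad domains with p300. The first of these parts held 9.61% of the domains without p300, 12.2% of those with p300 and 12.9% of all H3K4me3 peaks. The eighth held the most domains without p300, 129 of 989 or 13.0%, and it held 10.6% of those with p300 and 10.3% of all H3K4me3 peaks. These values were not tested.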
